A study of Mus musculus with 4 samples.

Results

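The genes described here are 10 that carry leukocyte adhesion to the vessel wall: 5 integrin chains of the leukocyte side (Itgam, Itgax, Itgal, Itgb2 and Itga4) and 5 adhesion molecules of the vessel side (Vcam1, Icam1, Icam2, Sele and Selp). They were chosen by symbol, as every probe that is not a control and that the array's annotation assigns to a member. This gave 25 probes of 56605 on the array, 15 on the leukocyte side and 10 on the vessel side, for 10 of 26283 named genes. No other probe reached a member through its accession. Total RNA came from 4 mouse samples at an age of 24 weeks: spinal cord of transgenic mice (Tg), spinal cord of wild-type mice (WT), brainstem/cerebellum of Tg mice and brainstem/cerebellum of WT mice. Both genotypes shared a mixed background of the 3 strains C57BL/6, 129 and C3H. The submitters call the transgenic animals MSA Tg, and the titles of all 4 samples, wild types included, begin with PLP. The transgene, the promoter that drives it and the number of animals in a sample are not stated in the labels.

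Each sample was hybridised to 1 array, so groups could not be tested against each other and no p-value is given. Levels are the log2 processed signal from which the 75th percentile of the same array was taken, so that 0 is the signal of a spot at that percentile, and differences are in log2 units. The error given with a difference is the technical SD expected between spots of 1 probe at that level, from probes printed repeatedly on each array. It leaves out animals and hybridisations. A difference counts as higher or lower when it reaches 2-fold. Where a probe was well above background on 1 of the arrays compared, the difference is a bound. Of 59305 spots that are not controls, 59.2% to 64.0% were well above background, and none was saturated. The WT spinal cord array lay on another slide than the other 3, so slide and genotype cannot be told apart in the spinal cord. The source field calls all 4 samples brain. The cerebellar genes Cbln1, Zic1, Pcp2 and Calb1 and the spinal genes Hoxa7, Hoxc6, Hoxc8 and Hoxb8 followed the tissue labels: Hoxc8 was below background on both brainstem/cerebellum arrays, and the summed linear level of 5 Hox genes was 13.4 and 27.5 on the Tg and WT spinal cord arrays, against 0.39 and 0.36 on the Tg and WT brainstem/cerebellum arrays. The spinal cord arrays also differed from each other, with a median Tg minus WT difference of -0.86 for these Hox genes. For 4 neuron markers that median was -0.51, with sums of 74.8 in Tg and 114 in WT spinal cord. The part of tissue make-up in the spinal cord differences was not tested.

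Leukocytes leave the blood in steps. Selectins on activated endothelium (E-selectin from Sele, P-selectin from Selp) slow the cells, integrins on the leukocyte then switch to a binding state, and immunoglobulin-like ligands on the endothelium (ICAM-1, ICAM-2 and VCAM-1) hold them. Integrins work as pairs of an alpha and a beta chain: Itgb2 pairs with Itgal (LFA-1), Itgam (Mac-1, or complement receptor 3) or Itgax (complement receptor 4), while Itga4 pairs with Itgb1 (VLA-4, the receptor for VCAM-1) or Itgb7. In the central nervous system these chains are not limited to cells arriving from blood, because microglia carry Itgam and Itgb2 and, in some activated states, Itgax, and astrocytes can express ICAM-1 and VCAM-1.

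The values rest on the probes, and the start of the probe that stands for each member the results turn on is given here (the first 30 of 60 bases, 5′ to 3′, coordinates of the whole probe in mm9). The probe with the highest mean level over the 4 arrays stood for its gene. In the Itgam probe the capitals mark a run of 10 CA units.
Itgam probe 1: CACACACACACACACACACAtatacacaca
Itgam probe 2: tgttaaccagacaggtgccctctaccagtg
Itgax probe 1: tcccatctacttttgcaacgttggaattga
Itgb2 probe 1: aaagctagagcatgagttatcataatcaag
Itga4 probe 1: gtgtgtggaatgcattataaagatctaaca
Icam1 probe 1: ctgtgggagggtaagcaaccctcccagcac
Vcam1 probe 1: tatatttttataggcaaatggtaaagaggt
The Itgam probes lie at chr7:135261755-135261814 and chr7:135212140-135212199, and the Itgax probe at chr7:135294052-135294111, all on the plus strand. On the plus strand are also the probes of Itgb2 (chr10:77027978-77028037), Itga4 (chr2:79173193-79173252) and Icam1 (chr9:20833186-20833245), while that of Vcam1 (chr3:115813216-115813275) is on the minus strand. The exon or UTR each probe lies in was not looked up, as no annotation of this build was used.

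Across the members, the chains of complement receptor 4 (Itgax and Itgb2) and the ligand gene Icam1 were at least 2-fold higher in Tg mice in both tissues, with Itgax at 14.7-fold in the spinal cord. Itga4 and Vcam1, which encode a receptor chain and its ligand, were higher in the spinal cord of Tg mice by 2.39-fold and 2.40-fold. In brainstem/cerebellum both stood near 0. At its brightest probe neither Itgal nor Icam2 reached 2-fold in either tissue, while another Itgal probe differed from this. Sele was below background on all 4 arrays, and Selp was seen on the WT spinal cord array alone. The bright probe of Itgam did not reach 2-fold either, but its 2 probes disagree, as described below.

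**Figure D1:**
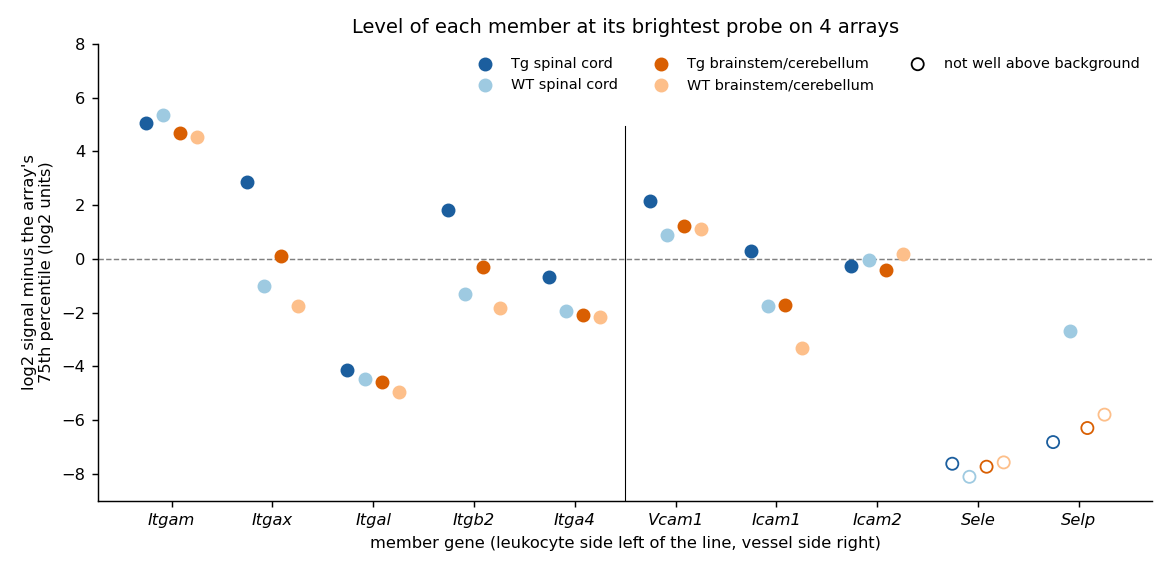
Level of each member at its brightest probe (log2 signal minus the 75th percentile of the array) on the Tg and WT spinal cord arrays and the Tg and WT brainstem/cerebellum arrays, 1 point per array, with open points where the probe was not well above background. Itgax, Itgb2 and Icam1 have their highest point on the Tg spinal cord array (2.88, 1.82 and 0.31), and every Sele point is open.

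Itgb2 encodes the beta2 chain that Itgal, Itgam and Itgax need to reach the cell surface. Its level was 1.82 on the Tg spinal cord array, against -1.31 on the WT spinal cord array. In brainstem/cerebellum it was -0.28 in Tg and -1.81 in WT mice. Tg arrays were thus above both WT arrays. The difference was 3.14 ± 0.11 in the spinal cord, or 8.79-fold, and 1.53 ± 0.13 in brainstem/cerebellum, or 2.88-fold (technical SD, 1 array per group). The gene has only 1 probe on the array. In order of their difference from the highest, Itgb2 stood at rank 124 of the 16856 genes that both spinal cord arrays showed above background and at rank 175 of 16576 in brainstem/cerebellum.

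Itgax encodes CD11c, the alpha chain of complement receptor 4, known from dendritic cells and from activated microglia. Its brightest probe had a level of 2.88 in Tg and -1.0 in WT spinal cord. The level was 0.11 in Tg and -1.76 in WT brainstem/cerebellum. The Tg arrays again lay above both WT arrays. The difference was 3.88 ± 0.11 in the spinal cord (14.7-fold, rank 63 of 16856) and 1.87 ± 0.11 in brainstem/cerebellum (3.66-fold, rank 96 of 16576). The other 2 Itgax probes ran the same way as far as they could be measured. Probe 2 was above background on both Tg arrays and neither WT array, with bounds of at least 7.42-fold higher in Tg spinal cord and at least 1.18-fold higher in Tg brainstem/cerebellum. Probe 3 was above background on the Tg spinal cord array alone, at least 2.89-fold above WT spinal cord.

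Itgam encodes CD11b, the alpha chain of Mac-1, and its probes gave different pictures. Probe 1 had a level of 5.07 in Tg and 5.35 in WT spinal cord, and of 4.68 in Tg and 4.55 in WT brainstem/cerebellum. The spinal cord pair differed by -0.28 ± 0.09 and the brainstem/cerebellum pair by 0.13 ± 0.09, so the spread over all 4 arrays was small beside that of Itgax or Itgb2. Probe 1 begins with the CA run printed in capitals above. The array holds 42 probes with at least 8 CA units in a row. Their median level was 4.86 and 4.96 on the Tg and WT spinal cord arrays and 4.42 and 4.33 on the Tg and WT brainstem/cerebellum arrays, and on each array 95.2% of them were at or above the 75th percentile. Among the 56494 probes without such a run on either strand, medians lay between -4.19 and -4.0, with 21.3% to 21.4% at or above that percentile. The Itgam probe thus had the level of other probes with the run, at ranks 12 to 18 of 42. How much of its signal comes from Itgam transcripts was not tested.

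Probe 2 of Itgam, which starts at base 270 of its transcript against 4431 for probe 1, was dim. It had a level of -4.78 in Tg and -4.99 in WT spinal cord, a difference of 0.21 ± 0.25, and was not well above background on either brainstem/cerebellum array. Neither probe showed a 2-fold difference of Itgam between genotypes, and at the level of probe 2 a difference below its technical SD could not be seen. With probe 2 in place of probe 1, a choice made after seeing the data, Itgam had no difference in brainstem/cerebellum to report.

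Itgal encodes CD11a, the alpha chain of LFA-1, known from lymphocytes and other blood leukocytes. Its probe 1 was dim on every array, at -4.12 in Tg and -4.46 in WT spinal cord and at -4.58 in Tg and -4.94 in WT brainstem/cerebellum. The differences of 0.34 ± 0.25 and 0.36 ± 0.25 were small beside the threshold, and that in the spinal cord was -0.05 when arrays were scaled on spike-in controls and -0.63 when all probes were averaged. The median of the probes above background takes in probe 2. With it Itgal was past 2-fold in opposite directions, at -1.0 in the spinal cord and 1.29 in brainstem/cerebellum. Both values take dim signals of probe 2 as measured, where its differences are bounds of -0.51 and 1.79. The other 2 Itgal probes are shown because they lie at the same site and disagree. The capitals mark the start of the 56 bases they share.
Itgal probe 2: gtcCCACTGCTCTGTCTTTTATTAACAATG
Itgal probe 3: ctgtCCACTGCTCTGTCTTTTATTAACAAT
Probe 2 (chr7:134474711-134474767, mm9) was above background on the Tg brainstem/cerebellum array at -3.47, with WT brainstem/cerebellum dim, a bound of at least 3.45-fold higher. In the spinal cord it was dim in Tg and at -4.79 in WT mice, a bound of at least 1.43-fold lower. Probe 3 (chr7:134474706-134474766, mm9), which shares those bases, was below background on all 4 arrays, with levels between -7.65 and -6.62. The values of Itgal probe 2 therefore have no second measurement behind them.

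Itga4 encodes the alpha4 chain, which with the beta1 chain binds VCAM-1. Its brightest probe had a level of -0.68 in Tg spinal cord, against -1.94 in WT spinal cord. In brainstem/cerebellum the levels were -2.07 in Tg and -2.16 in WT mice. Only the Tg spinal cord array stood apart from the other 3. The difference was 1.25 ± 0.13 in the spinal cord, or 2.39-fold, and 0.09 ± 0.19 in brainstem/cerebellum, where its sign changed with the scaling (-0.09 when arrays were scaled on their median). A second Itga4 probe gave 1.49 ± 0.50 in the spinal cord, and 4 others were below background on all arrays.

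**Figure D2:**
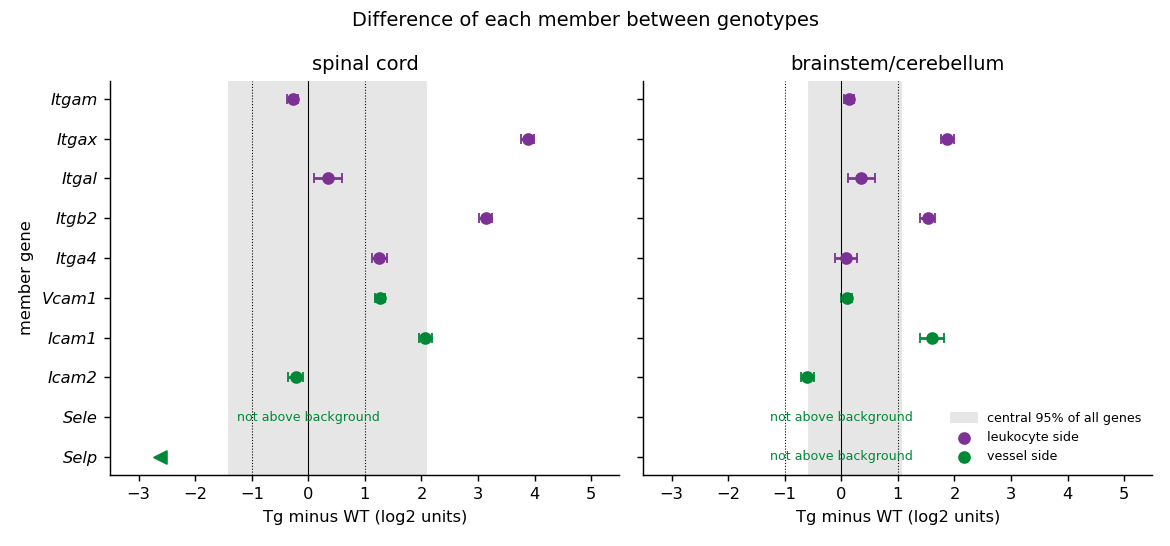
Difference between Tg and WT mice (log2 units) of each member at its brightest probe in spinal cord and in brainstem/cerebellum, with bars for the technical SD, a triangle for the Selp bound, dotted lines at 2-fold and grey for the central 95% of genes above background on both arrays. Itgax and Itgb2 lie right of the grey range in both tissues, while Itgam, Itgal and Icam2 lie between the dotted lines in both.

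On the vessel side, Icam1 encodes ICAM-1, the inducible ligand of LFA-1 and Mac-1. Its brightest probe had a level of 0.31 in Tg and -1.76 in WT spinal cord. The level was -1.72 in Tg and -3.32 in WT brainstem/cerebellum. The Tg array was the higher in each tissue, and the Tg brainstem/cerebellum array was at about the level of the WT spinal cord array. The difference was 2.07 ± 0.11 in the spinal cord (4.19-fold, rank 426 of 16856) and 1.61 ± 0.21 in brainstem/cerebellum (3.05-fold, rank 153 of 16576). With normexp background correction the brainstem/cerebellum difference was 0.87, below 2-fold. Probe 2 was above background on both Tg arrays alone, with a bound of at least 5.26-fold higher in Tg spinal cord.

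Vcam1 encodes VCAM-1, the ligand of the Itga4 and Itgb1 pair. Its level was 2.14 in Tg spinal cord and 0.88 in WT spinal cord, and it was 1.21 in Tg and 1.12 in WT brainstem/cerebellum. As for Itga4, the Tg spinal cord array stood above the other 3. The difference was 1.27 ± 0.09 in the spinal cord, or 2.40-fold, and 0.09 ± 0.09 in brainstem/cerebellum, where it was -0.08 when arrays were scaled on their median. The other Vcam1 probe gave 1.24 ± 0.26 in the spinal cord and 0.38 ± 0.25 in brainstem/cerebellum. Scaled on spike-in controls, the spinal cord differences of Vcam1 and Itga4 were 0.88 and 0.87, below 2-fold.

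Icam2 encodes ICAM-2, a ligand of LFA-1 that resting endothelium carries. Its level was -0.25 in Tg and -0.03 in WT spinal cord, and -0.41 in Tg and 0.19 in WT brainstem/cerebellum. The Tg array was the lower in each tissue, by -0.22 ± 0.13 in the spinal cord and -0.60 ± 0.11 in brainstem/cerebellum, and neither reached 2-fold. In brainstem/cerebellum this put Icam2 at rank 16240 of 16576 from the highest, below the central 95% of genes, and at a threshold of 1.5-fold it counted as lower. The mean over both probes, which takes in a probe below background on all arrays, was 0.06 in the spinal cord.

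The selectin genes were at the edge of detection. Sele, which encodes E-selectin of cytokine-activated endothelium, was not well above background on any array, with levels between -8.11 and -7.57, so no fold is given. Selp, which encodes P-selectin of endothelium and platelets, had its brightest probe at -2.67 on the WT spinal cord array and below background on the other 3. This gives a bound of at least 6.19-fold lower in Tg than in WT spinal cord. The measured difference, which takes the dim signal as it is, was -4.14, but -1.10 with normexp and -0.86 with the mean of all probes, and the gene was not counted as lower in either setting. The other 2 Selp probes were below background on all 4 arrays, the WT spinal cord array included. That array lay on the separate slide, and the part of the slide in the Selp value was not tested. Madcam1, another vessel ligand, was also seen on that array alone, at a bound of at least 3.66-fold lower in Tg spinal cord.

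**Figure D3:**
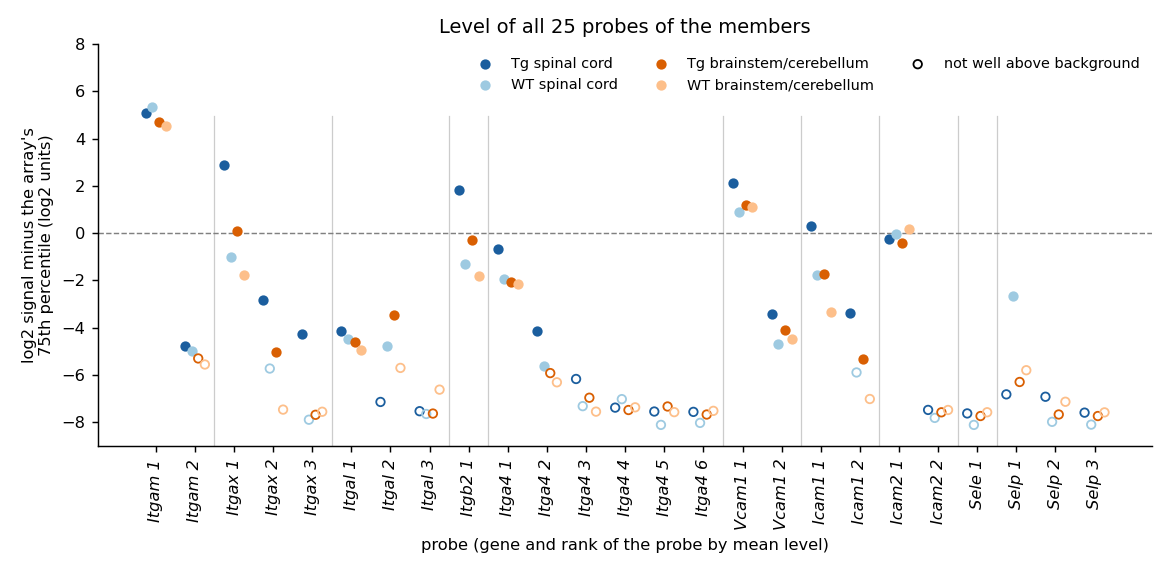
Level of all 25 probes of the members (log2 signal minus the 75th percentile of the array) on the Tg and WT spinal cord arrays and the Tg and WT brainstem/cerebellum arrays, numbered within a gene by mean level, with open points where a probe was not well above background. Of the 25 probes, 16 have a filled point on at least 1 array and 9 on all 4, and the 2 Itgam probes lie far apart.

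Set side by side in the spinal cord, 5 of 9 measured members were at least 2-fold higher in Tg mice, where 9.74% of all 18381 genes were, and 1 was lower (Selp, by its bound), where 6.84% of all genes were. The Selp call was lost with normexp and with the mean of all probes, which left 0 members lower. These were 3 of 5 on the leukocyte side (Itgax, Itgb2 and Itga4) and 2 of 4 on the vessel side (Icam1 and Vcam1). The median difference was 1.25 on the leukocyte side and 0.52 on the vessel side, beside a median of -0.05 over all genes with a central 95% from -1.40 to 2.08. In brainstem/cerebellum, 3 of 8 measured members were higher, where 3.66% of all 17676 genes were, and 0 were lower, where 0.594% were. These were 2 of 5 on the leukocyte side (Itgax and Itgb2) and 1 of 3 on the vessel side (Icam1), with medians of 0.36 and 0.09 beside -0.06 over all genes with a central 95% from -0.56 to 1.05. The sides differed by 0.73 in the spinal cord and by 0.26 in brainstem/cerebellum. Without members dim on any array the vessel median in the spinal cord was 1.27, next to 1.25 on the leukocyte side. The spinal cord gap was also 0.11 with the mean of all probes and 1.92 with means in place of medians, so its size depended on these choices. The 1.92 also takes Selp at its measured -4.14, where its dim signal stands as it is, and not at its bound. The brainstem/cerebellum gap was 0.02 with quantile normalization. In the spinal cord both sides held members from over 4-fold higher to below 0, so the members of a side differed more among themselves than the sides did.

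**Figure D4:**
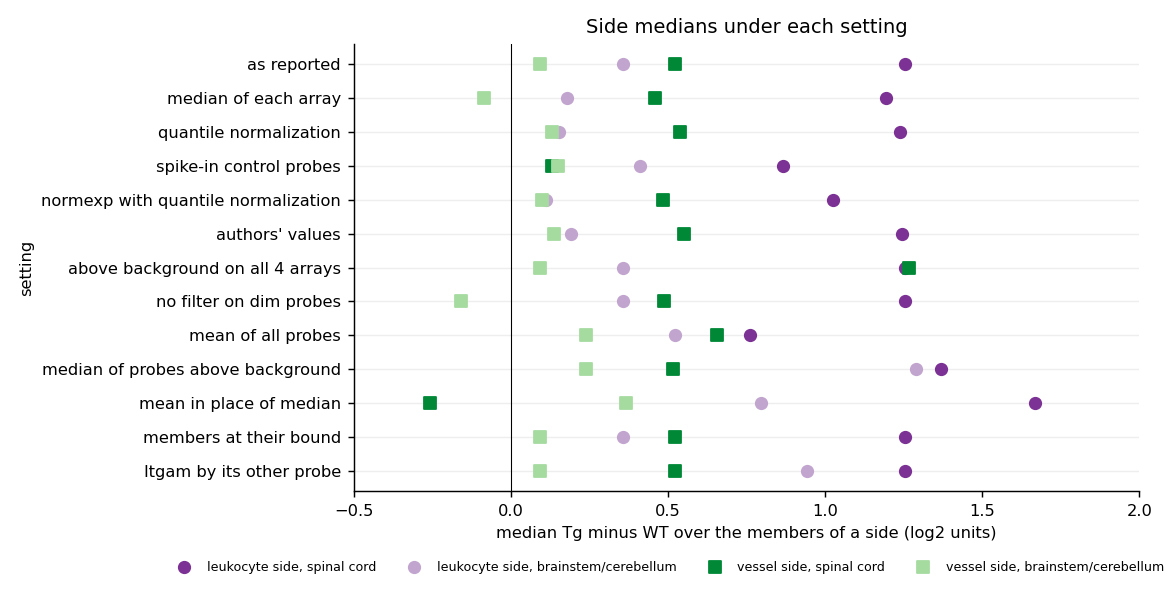
Median difference between Tg and WT mice (log2 units) over the members of the leukocyte side and of the vessel side in spinal cord and in brainstem/cerebellum, as reported and under each alternative setting. The leukocyte median in the spinal cord stays between 0.76 and 1.67, while the vessel median there spans -0.26 to 1.27. The -0.26 is a mean with the dim Selp signal taken as measured.

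Between tissues, 4 of 8 measured members were at least 2-fold higher in spinal cord than in brainstem/cerebellum of Tg mice, where 11% of all genes were, and 0 were lower, where 7.08% of all genes were. In WT mice 2 of 9 were (Icam1 and, by its bound, Selp), where 7.6% of all genes were, and 0 were lower, where 4.92% were. The differences between tissues were 2.77 for Itgax, 2.11 for Itgb2, 2.02 for Icam1 and 1.39 for Itga4 in Tg mice. The same differences in WT mice were 0.76 for Itgax, 0.50 for Itgb2, 1.56 for Icam1 and 0.22 for Itga4. Vcam1 was 0.93 higher in spinal cord of Tg mice and differed by -0.24 between the tissues of WT mice. Icam1 was thus the member with a tissue difference past 2-fold in both genotypes. The spinal cord difference between genotypes exceeded that in brainstem/cerebellum by 2.01 for Itgax, 1.61 for Itgb2, 1.17 for Itga4 and for Vcam1, and 0.46 for Icam1. Each of these excesses takes in the slide of the WT spinal cord array, and none could be tested.

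The lists of partner genes were described in the same way. Their counts, and those of the cell type markers below, are to be read beside the shares of all genes. These were 9.74% higher and 6.84% lower in the spinal cord, and 3.66% higher and 0.594% lower in brainstem/cerebellum. The beta2 relative Itgad, an alpha chain that pairs with Itgb2, was higher in Tg spinal cord by 3.07 ± 0.48 and at least 3.70-fold higher in Tg brainstem/cerebellum. Of 18 measured integrin chains other than the members, 5 were higher and 0 lower in Tg spinal cord (Itga5, Itga7, Itga8, Itgad and Itgb5), with a median of 0.47. In brainstem/cerebellum 1 was higher (Itgad) and 0 were lower, with a median of 0.10. Itga5, the alpha chain of the fibronectin receptor, was at 2.73 ± 0.49 in the spinal cord, and the vitronectin receptor chain Itgb5 at 1.60 ± 0.09. The partners of Itga4 were at 1.0 ± 0.09 for Itgb1, just short of 2-fold before rounding, and at 0.55 for Itgb7 in the spinal cord, and at 0.07 and 0.10 in brainstem/cerebellum. Another Itgb1 probe was past 2-fold in the spinal cord, at 1.48, and stood at 0.32 in brainstem/cerebellum.

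Genes that switch leukocyte integrins to their binding state were often higher in Tg mice. In the spinal cord 6 of 11 were, with 0 lower and a median of 1.01, and 5 of 11 were in brainstem/cerebellum, with 0 lower and a median of 0.34. Of all genes, 9.74% were higher in the spinal cord and 3.66% in brainstem/cerebellum. Fermt3, which encodes kindlin-3 of blood cells, was at 2.80 ± 0.20 in the spinal cord and 1.63 ± 0.26 in brainstem/cerebellum. The adaptor gene Fyb was at 2.90 ± 0.11 and 1.53 ± 0.17 in this order of tissues, the exchange factor gene Vav1 at 2.58 and 1.57, and the GTPase gene Rac2 at 2.25 and 1.75. The ubiquitous talin gene Tln1 was at 0.87 and 0.20, below 2-fold.

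**Figure D5:**
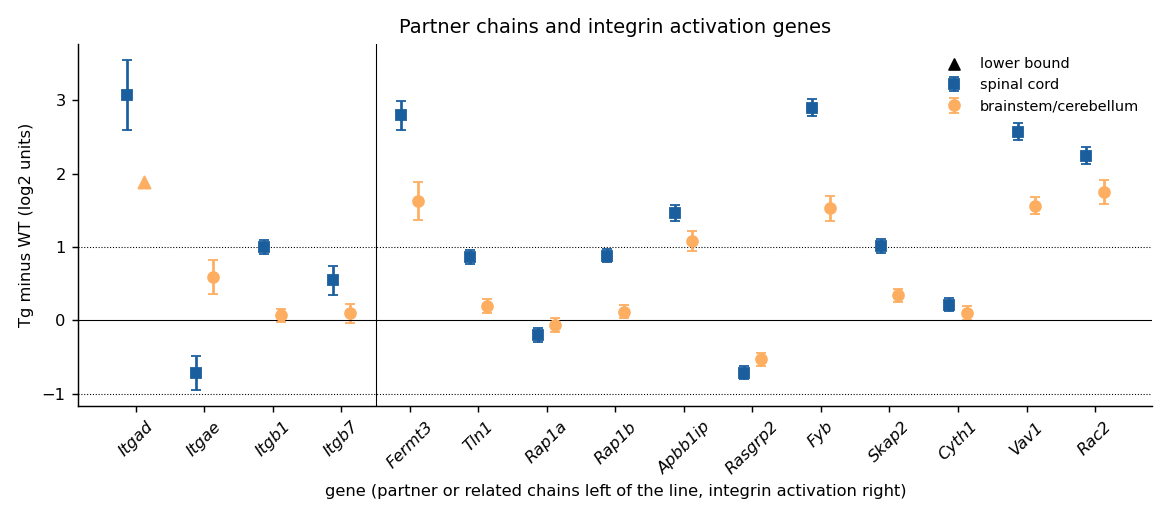
Difference between Tg and WT mice (log2 units) in spinal cord and in brainstem/cerebellum for partner or related integrin chains and for the 11 integrin activation genes, with bars for the technical SD, a triangle for a lower bound and dotted lines at 2-fold. Fermt3, Fyb, Vav1, Rac2 and Apbb1ip lie above 2-fold in both tissues, while Rap1a, Cyth1 and Rasgrp2 lie between the dotted lines.

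Ligands and receptors of selectins had 1 of 9 genes higher and 1 lower in Tg spinal cord, with a median of 0.30, and 1 of 9 higher and 0 lower in brainstem/cerebellum, with a median of -0.06. Cd44, a hyaluronan receptor that can also carry selectin ligands, was the higher gene in both, at 1.86 ± 0.11 in the spinal cord and 1.37 ± 0.17 in brainstem/cerebellum. Genes of endothelial junctions and surface had 2 of 15 higher (F11r at 1.07 and Cd34 at 1.17) and 1 lower (Madcam1) in Tg spinal cord, with a median of -0.19. In brainstem/cerebellum 0 of 14 were higher or lower and the median was -0.01. The spinal cord counts of higher genes in the selectin and junction lists were near the share of 9.74% over all genes. Cytokines, receptors and NF-kB subunits that act on Icam1, Vcam1 and Sele in endothelium had 6 of 12 higher and 0 lower in Tg spinal cord, with a median of 1.02, and 1 of 11 higher and 0 lower in brainstem/cerebellum, with a median of 0.36. Il1b, which encodes interleukin-1 beta, was at 2.67 ± 0.49 in the spinal cord and at least 2.47-fold higher in brainstem/cerebellum. The interleukin-1 receptor gene Il1r1 was at 1.42 and 0.93, Relb at 1.49 and 0.39 (its other probes spanned -1.26 to 1.35 in the spinal cord), and Il1a was at least 2.86-fold higher in the spinal cord. Tnf reached 2-fold in neither tissue, at -0.74 ± 0.23 in the spinal cord and 0.36 ± 0.26 in brainstem/cerebellum. The brightest probe of its receptor gene Tnfrsf1b was at -0.59 and -0.12 in this order of tissues, with another probe at 2.75 and 1.67. Ifng was below background on all 4 arrays.

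In whole tissue, fewer cells of a type and less RNA per cell cannot be told apart, so levels of cell type markers are given beside the members. Pan-leukocyte and myeloid markers were higher on the same arrays as Itgax and Itgb2. Their summed linear level (signal over the 75th percentile, added over the list) was 176 in Tg and 35.1 in WT spinal cord, and 45.8 in Tg and 22.9 in WT brainstem/cerebellum. Of 8 such genes measured in the spinal cord 7 were higher, and of 7 in brainstem/cerebellum 5 were, with Cd68 at 3.73 and 1.85, Tyrobp at 2.95 and 1.21, Fcer1g at 2.70 and 1.15 and Laptm5 at 2.31 and 1.23. Ptprc, the common leukocyte gene, was not among them at its brightest probe, at -0.85 in the spinal cord and -0.49 in brainstem/cerebellum. Its other measured probes ran the other way, from 1.97 to 2.50 over 3 probes in the spinal cord and from 0.76 to 1.26 over 2 probes in brainstem/cerebellum. Microglia markers had a sum of 63.6 in Tg and 64.2 in WT spinal cord and of 36.5 in Tg and 24.3 in WT brainstem/cerebellum. In the spinal cord 3 of 8 were higher and 2 lower (among them Fcrls at 2.74, Siglech at -1.61 and Olfml3 at -1.73), and in brainstem/cerebellum 1 of 8 was higher (Fcrls at 1.47). The other Olfml3 probes spanned -0.11 to 1.68 in the spinal cord. The part of the number or state of these cells in the members' values was not tested.

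Markers of neutrophils, T cells, B cells, natural killer cells and dendritic cells were above background more often in spinal cord than in brainstem/cerebellum. Of 9 neutrophil markers 7 were above background in Tg and 8 in WT spinal cord, against 4 in Tg and 3 in WT brainstem/cerebellum. Of 9 T cell markers 6 were in Tg and 6 in WT spinal cord, against 5 in Tg and 4 in WT brainstem/cerebellum. The T cell marker Cd5 was above background in brainstem/cerebellum alone. Of 5 B cell markers 3 were in Tg and 3 in WT spinal cord, against 2 in Tg and 1 in WT brainstem/cerebellum. Of 4 natural killer cell and of 5 dendritic cell markers, 3 were on each spinal cord array and 2 on each brainstem/cerebellum array. Of 26281 named genes with a level on every array, 17355 were in Tg and 17882 in WT spinal cord. In brainstem/cerebellum 17395 were in Tg and 16857 in WT mice. No genotype stood out in these counts. Of 4 monocyte markers, Ccr2 was below background on all arrays, and the sum was 14.1 in Tg and 9.71 in WT spinal cord and 12.8 in Tg and 12.1 in WT brainstem/cerebellum. Most of this sum came from Ly6c2. Without Ly6c2, a choice made after seeing the data, the sums were 2.15 in Tg and 0.49 in WT spinal cord. In brainstem/cerebellum they were 0.32 in Tg and 0.06 in WT mice. Most of what was left on each array came from Chil3 alone. Chil3 was higher by 2.34 in the spinal cord and 2.68 in brainstem/cerebellum, and Ly6c2 stood at 0.37 and 0.05. Border macrophage markers had a sum of 4.32 in Tg and 3.61 in WT spinal cord and of 2.15 in Tg and 1.56 in WT brainstem/cerebellum, with 0 of 7 and 2 of 7 higher (Lyve1 at 1.41 and F13a1 at 1.09 in brainstem/cerebellum) and 1 lower in the spinal cord (Cd209f). Neutrophil markers had a sum of 10.9 in Tg and 7.51 in WT spinal cord and of 0.36 in Tg and 0.48 in WT brainstem/cerebellum. Mmp8 was at 1.13 in the spinal cord, Ly6g was at least 3.33-fold lower there, and Cxcr2 was below background on all arrays. The neutrophil sum thus differed more between tissues than between genotypes. T cell markers had a sum of 1.01 in Tg and 1.91 in WT spinal cord and of 1.0 in Tg and 0.97 in WT brainstem/cerebellum. Of 7 measured in the spinal cord 2 were higher (Cd3g, at least 2.62-fold, and Cd2 at 1.36) and 1 lower (Cd4 at -1.80), of 5 in brainstem/cerebellum 0 passed 2-fold, and Cd8a was below background on all arrays. Without Cd4 the T cell sums were 0.64 in Tg and 0.61 in WT spinal cord. T cell genes therefore differed in both directions. B cell markers had sums of 0.58 in Tg and 0.21 in WT spinal cord and of 0.09 in Tg and 0.07 in WT brainstem/cerebellum, with 2 of 4 higher in the spinal cord (Cd79b at 2.21 and Ms4a1, at least 2.69-fold) and 0 of 2 in brainstem/cerebellum. Without Cd79b the B cell sums were 0.13 in Tg and 0.11 in WT spinal cord. In brainstem/cerebellum they were then 0.05 in Tg and 0.06 in WT mice. Cd79a was below background on all arrays.

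Natural killer cell markers had a sum of 6.78 in Tg and 21.7 in WT spinal cord and of 11.7 in Tg and 10.8 in WT brainstem/cerebellum, most of it from Klrb1c, which was at -1.69 in the spinal cord and 0.10 in brainstem/cerebellum. Without Klrb1c the sums were 0.11 in Tg and 0.13 in WT spinal cord, and 0.11 in Tg and 0.06 in WT brainstem/cerebellum. Ncr1 was below background on all arrays, and Prf1 was at least 3.29-fold higher in brainstem/cerebellum. Dendritic cell markers had a sum of 0.86 in Tg and 1.5 in WT spinal cord and of 2.40 in Tg and 2.67 in WT brainstem/cerebellum, most of it from Flt3. Without Flt3 it was 0.15 in Tg and 0.11 in WT spinal cord. Xcr1 and Clec9a were below background on all arrays, and Ccr7 was at 1.37 in the spinal cord.

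Endothelial markers were not higher where Icam1 and Vcam1 were. Of 12 endothelial genes 0 were higher and 1 was lower in each tissue (Kdr, the receptor gene for VEGF, at -1.84 in the spinal cord and -1.30 in brainstem/cerebellum), with medians of -0.22 and -0.12. Their summed level was 37.7 in Tg and 48.9 in WT spinal cord and 37.6 in Tg and 47.5 in WT brainstem/cerebellum. Without Kdr, a choice made after seeing the data, the sums were 32.6 in Tg and 30.7 in WT spinal cord and 31.9 in Tg and 33.7 in WT brainstem/cerebellum, so most of the gap was that gene. Pecam1 was at -0.70 and 0.00 in this order of tissues, and Cldn5, the tight junction gene, at 0.65 and 0.48. Of 4 venular genes, Lrg1 was higher in both tissues, at 1.47 and 1.59, and Vwf in the spinal cord, at 1.09, while Ackr1 of venules was at -0.93 and 0.05. Venular genes thus did not share a direction. The venular sum was 9.38 in Tg and 9.71 in WT spinal cord and 12 in Tg and 10.9 in WT brainstem/cerebellum, and without Ackr1 it was 6.03 in Tg and 3.33 in WT spinal cord.

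Of 4 red cell genes (Hba-a1, Hba-a2, Hbb-bt and Alas2) 0 passed 2-fold in either tissue, with medians of -0.03 in the spinal cord and -0.25 in brainstem/cerebellum. Among other cells at the vessel, mural markers had a sum of 15.7 in Tg and 9.41 in WT spinal cord and of 7.73 in Tg and 8.32 in WT brainstem/cerebellum. Tagln was higher in the spinal cord, at 1.35, and Myh11 was lower in brainstem/cerebellum, at -2.08 with another probe at 0.40. Without Tagln the mural sums were 7.05 in Tg and 6.03 in WT spinal cord, and 5.60 in Tg and 6.85 in WT brainstem/cerebellum. Mural genes thus shared no direction. Platelet markers, which bear on Selp, had sums of 0.26 in Tg and 0.41 in WT spinal cord and of 0.08 in Tg and 0.11 in WT brainstem/cerebellum, and Itga2b and Gp1ba were below background on all arrays. Fibroblast markers had sums of 27.4 in Tg and 24.4 in WT spinal cord and of 12.2 in Tg and 9.56 in WT brainstem/cerebellum, with Col3a1 higher in both tissues, at 1.72 and 1.38. Astrocyte markers had sums of 97.5 in Tg and 55.6 in WT spinal cord and of 57.0 in Tg and 41.3 in WT brainstem/cerebellum. Gfap was higher in both tissues, at 1.08 and 1.44, with its other probe at 0.40 and 0.82. Without Gfap the astrocyte sums were 37.9 in Tg and 27.4 in WT spinal cord, and 37.3 in Tg and 34.0 in WT brainstem/cerebellum.

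Profiles over the 4 arrays were compared among 16139 genes above background on every array, by the root mean square distance between log2 levels centred on each gene's mean. The 5 genes nearest to Itgb2 were Cxcr4 (distance 0.05), the chemokine receptor gene, then the microglial receptor gene Trem2, the NADPH oxidase gene Ncf4, Slfn2 and Fyb, the last at 0.10. Itgax was at rank 169 (distance 0.37) and Icam1 at rank 229 (0.45), against rank 5236 for Itgam and 11157 for Icam2. The 5 genes nearest to Vcam1 were Catspere2 (distance 0.02), 4931440P22Rik, Rep15, Hsd3b7 and the transcription factor gene Jun (0.04), with Itga4 at rank 631 (0.23) and Icam1 at rank 14833 (0.94). These distances describe 4 arrays, of which the Tg spinal cord array sets most of the spread.

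Promoter sequence was examined for the letters of a pair of motifs. RefSeq promoters of the build GRCm38.p6, taken as 250 bases before the start of the gene, were found for 6 of the 10 members: Itgam, Itgax, Itga4, Icam1, Sele and Selp. The kB-type motif GGNNNTTCC, of the kind NF-kB binds, occurred on either strand in 15.7% of 32851 promoters, and the PU.1-type motif GAGGAA, of the kind the myeloid factor PU.1 binds, in 23.3%. Read on opposite strands the motifs can share letters, since both hold GGAA or TTCC. The promoters of Icam1 and Sele are printed because both hold a kB-type match while Icam1 was higher in Tg mice and Sele was below background. The capitals mark these matches.
Icam1 promoter: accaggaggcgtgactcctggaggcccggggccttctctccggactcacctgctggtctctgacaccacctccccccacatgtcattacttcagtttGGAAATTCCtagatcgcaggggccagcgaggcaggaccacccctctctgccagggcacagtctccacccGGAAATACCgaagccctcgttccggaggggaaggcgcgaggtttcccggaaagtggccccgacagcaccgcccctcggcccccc
Sele promoter: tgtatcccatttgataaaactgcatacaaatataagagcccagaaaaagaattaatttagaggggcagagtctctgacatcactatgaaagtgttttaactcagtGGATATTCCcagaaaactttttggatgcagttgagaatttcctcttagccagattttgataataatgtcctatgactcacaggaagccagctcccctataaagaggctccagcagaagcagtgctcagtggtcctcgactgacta
The Icam1 sequence is chr9:21015690-21015939 and the Sele sequence chr1:164047984-164048233, both on the plus strand. Icam1 held 2 kB-type matches, beginning 153 and 84 bases before the start, Sele held 1 at 145 bases and Selp 1 at 14 bases. Itgam held PU.1-type matches at 84 and 15 bases and Sele held 1. Neither motif was found in this window of Itgax or Itga4, and a match is a description of the letters.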

How the data were processed

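Total RNA from 4 mouse tissue samples was labelled with Cy3 and hybridised to 1-colour Agilent arrays, 1 per group, with groups taken from the titles and the genotype and tissue labels. The deposited scanner files give linear intensities of each spot, background-subtracted and detrended within each array per the file headers. The software version is 10.7.1.1 per the file headers and 9.5.1.1 per the submitters' processing notes. The authors' deposited series table also holds linear intensities. Its columns share a median of 30.4 and follow a quantile normalization of the scanner signals computed here, which settles their scale, centring and direction. It served as an alternative. Every value column belongs to a sample.

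Control spots and outlier-flagged spots (63 to 134 per array) were left out, spots of 1 probe were averaged, and log2 of the processed signal was taken minus the array's 75th percentile (signals of 414 and 686 for Tg and WT spinal cord, 463 and 445 for Tg and WT brainstem/cerebellum). Of 56605 probes, 45334 were named through the accession, a symbol or a synonym of a RefSeq gene table (GRCm38.p6) or by the file's own symbol. A bound is the brighter level less a floor, which is the dim probe's level or the lowest level above background on the dim array, whichever is higher (-5.78 to -5.26). The technical SD came from 300 probes with 10 spots each and 10 spike-in probes with 35 spots each, pooled in bins of level. It was 0.09 for the brightest bin and 0.66 for the dimmest, and the number of arrays limits the precision. The brightest bin held 1196 pairs of a probe and an array, and each dimmer bin held 4 to 16. The technical SD of dim probes is therefore imprecise. Counts over genes, or over a list, take in genes above background on both arrays and bounds.

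The members and gene lists were chosen with earlier results of these data known, and the lists carry no test. Named were all members, from each list of partner genes or cell type markers up to 4 genes with the largest difference, and the 5 genes with profiles nearest to Itgb2 and to Vcam1. Some genes that this rule names are not reported here. Further list genes stand beside some counts and were picked with their values known. Alternatives were median, quantile and spike-in scaling, normexp background correction (offset 50) and then quantile normalization (limma 3.58.1 in R 4.3.3), the authors' values, other filters on dim probes, other ways to combine probes, the mean in place of the median, thresholds of 1.5-fold and 3-fold, and, added after seeing the data, Itgam by its other probe and sums of marker lists without a gene. The steps were tested on simulated data. Python 3.11.15 with pandas 2.3.3 was used.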

Additional observations from a re-analysis of the deposited data

Results flagged for a closer look

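Itgam probe 1, the probe with the CA run, was lower in Tg than in WT spinal cord, by -0.28, and higher in Tg than in WT brainstem/cerebellum, by 0.13, so that the spinal cord difference minus the brainstem/cerebellum difference was -0.41. Both values were under 2-fold. Scaled on the array medians, the brainstem/cerebellum value was -0.05. The difference between tissues was not tested.

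Itgal probe 2 also ran in opposite directions. By its bounds it was lower in Tg spinal cord, by -0.51, and higher in Tg brainstem/cerebellum, by 1.79, and these bounds differed by -2.30. Itgal probe 3, which shares most of its bases, was below background on all arrays. This difference was not tested either, with 1 array per group.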

How the results depend on the processing

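No paired analysis was possible because each group has 1 array and the groups share a single replicate number. For the same reason no array could be left out, and no block for the slide could be fitted. Within the settings run, Itgax, Itgb2 and Icam1 kept a positive difference in both tissues, as did Itga4 and Vcam1 in the spinal cord (0.76 to 1.37 and 0.88 to 1.31). The lowest values of Itgax were 2.89 in the spinal cord and 1.39 in brainstem/cerebellum, those of Itgb2 2.75 and 1.20, and those of Icam1 1.68 and 0.87. Signs changed in some settings for Itgam, for Itgal and Icam2 in the spinal cord, and for Itga4 and Vcam1 in brainstem/cerebellum.

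In the spinal cord, the leukocyte median of 1.25 was 0.87 with spike-in scaling, 1.03 with normexp, 0.76 with the mean of all probes, 1.37 with the median of probes above background and 1.67 as a mean. The vessel median of 0.52 was 0.13 with spike-in scaling, 1.27 with probes above background on all arrays and 0.65 with the mean of all probes. As a mean the vessel value was -0.26, with Selp at its measured -4.14 and not at its bound. The 1 lower member, Selp, became 0 with normexp and with the mean of all probes. The count became 2 with the median of probes above background, which added Itgal with a dim signal of its probe 2 taken as measured. The 5 members higher there became 3 with spike-in scaling and 3 at 3-fold. In brainstem/cerebellum, the 3 higher members became 4 with that median (Itgal at 1.29, also with a dim signal taken as measured). They became 2 with normexp and 2 at 3-fold, and 1 member, Icam2, was lower at 1.5-fold. The leukocyte median of 0.36 was 0.18 with median scaling, 0.15 with quantile normalization, 0.11 with normexp, 0.19 with the authors' values, 0.52 with the mean of all probes, 1.29 with the median of probes above background, 0.79 as a mean and 0.94 with the other Itgam probe. The vessel median of 0.09 was -0.085 with median scaling, -0.16 without the filter on dim probes, 0.24 with the mean of all probes, 0.24 with the median of probes above background and 0.37 as a mean. The causes of these changes were not tested.

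Over all genes in the spinal cord, 1791 were higher and 1258 lower. With spike-in scaling 1136 were higher and 3149 lower (26.5% of calls higher, against 58.7% as reported), with a median of all genes of -0.44, and the spike-in probes were 0.39 higher on the Tg array (SD 0.27 over 7 probes). With normexp 978 were higher and 550 lower, without the filter 2337 were lower, at 1.5-fold 3208 were higher and 3342 lower, and at 3-fold 945 and 360. In brainstem/cerebellum, 647 were higher and 105 lower, or 86.0% of calls higher. Median scaling gave 173 lower (74.0% of calls higher, with a median of all genes of -0.24), while 164 were lower with quantile normalization, 161 with the authors' values and 39 with genes above background on all arrays. Normexp gave 220 higher and 16 lower, no filter 1518 and 666, 1.5-fold 1412 and 486, and 3-fold 265 and 33.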
